A study of Mus musculus with 6 samples.

Results

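Imprinted genes are transcribed mainly from 1 parental allele, the one inherited from the father or the one from the mother. They lie in clusters whose alleles are set apart by DNA methylation laid down in the egg or the sperm, and a control region of each cluster often serves genes of opposite parental expression. Many of them set fetal growth, and several, such as Grb10 and Plagl1, are transcribed strongly in embryonic mesoderm and its derivatives. The arrays described here read the RNA of both alleles together, so they give the level of a gene and not its imprinting.

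A list of 35 mouse imprinted genes was followed in whole hearts at embryonic day 16.5. There were 3 samples of FOG-2 R3K5A embryos and 3 samples of wild-type (WT) siblings, 1 Affymetrix array each. The list leaves out Igf2, Igf2r and Cdkn1c, which are given once for comparison. Zfpm2 encodes FOG-2, a partner of GATA transcription factors in the heart. R3K5A changes the short stretch through which FOG-2 is known to recruit the chromatin remodelling complex NuRD. Both groups shared a mixed background of C57/B6 and 129 S6 and came from crosses between double heterozygotes. The labels do not give the sex of the embryos, the zygosity of the FOG-2 R3K5A embryos or whether a sample was 1 heart, and p-values measure the spread between these 6 samples.

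Members were found by gene symbol among the probe sets annotated to exactly 1 gene. Of the 35 genes 31 had such a probe set, and 83 probe sets in all. H19, Rtl1, Dio3 and Zrsr1 had none and are not reported. Each gene was read by its brightest probe set, judged on the mean of all 6 arrays, and a gene entered the test if that mean exceeded 6.30 log2 units, the median of all probe sets. This left 22 imprinted genes among 11113 genes tested in all. The other 9 (Usp29, Magel2, Mkrn3, Snrpn, Ascl2, Slc22a18, Phlda2, Peg10 and Nap1l5) were under that level and left out of this test. They entered only an alternative fit with no filter. All levels below are log2 intensities, which can be compared between arrays but not between genes, and differences are FOG-2 R3K5A minus WT.

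The arrays had median intensities of 77.4 to 84.1. All 8 cardiomyocyte markers examined, checked because the labelled tissue is heart, were above the filter level, and their summed level was 16.28 to 16.30 in FOG-2 R3K5A and 16.19 to 16.24 in WT hearts. Zfpm2 itself read 10.55 ± 0.03 in FOG-2 R3K5A and 10.11 ± 0.04 in WT hearts (SD, n = 3 each). WT replicate 1 correlated over the tested genes at 0.984 to 0.990 with the FOG-2 R3K5A arrays and at 0.982 and 0.986 with the other two WT arrays. It lay nearer to the FOG-2 R3K5A mean than to the mean of WT replicates 2 and 3 for 11 of the 22 imprinted genes (50%) and for 56.7% of all tested genes. In whole hearts, fewer cells of a type and less RNA per cell cannot be told apart.

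The upstream sequences of 4 members, chosen after their values were seen, are shown as examples of the CpG content and motif counts given below. Their transcripts lay higher on all 3 FOG-2 R3K5A arrays than on WT replicates 2 and 3. This was also true of Nnat, Impact, Cd81, Sgce and, by small margins, Plagl1 and Commd1, whose windows are not printed. Each runs 5′ to 3′ along the strand of the gene, from 250 bases before to 50 bases after the RefSeq start, in build GRCm38.p6. Capitals mark CpG dinucleotides, the bases that carry the methyl marks of imprinting. Peg3 is at chr7:6730370-6730669 on the minus strand, Zim1 at chr7:6696383-6696682 on the minus strand, Ndn at chr7:62348027-62348326 on the plus strand and Nap1l5 at chr6:58907077-58907376 on the minus strand.
Peg3: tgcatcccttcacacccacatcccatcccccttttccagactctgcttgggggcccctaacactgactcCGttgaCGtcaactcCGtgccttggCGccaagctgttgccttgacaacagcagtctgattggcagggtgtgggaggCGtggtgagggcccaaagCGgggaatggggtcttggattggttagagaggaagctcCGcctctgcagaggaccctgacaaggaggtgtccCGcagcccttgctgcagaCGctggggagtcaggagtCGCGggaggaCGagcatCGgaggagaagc
Zim1: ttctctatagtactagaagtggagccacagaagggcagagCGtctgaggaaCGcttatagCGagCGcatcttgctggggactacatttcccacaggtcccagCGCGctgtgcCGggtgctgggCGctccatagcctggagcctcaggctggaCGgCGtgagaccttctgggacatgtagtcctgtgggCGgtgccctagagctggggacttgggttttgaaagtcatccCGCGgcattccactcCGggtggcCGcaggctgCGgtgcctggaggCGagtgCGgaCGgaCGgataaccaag
Ndn: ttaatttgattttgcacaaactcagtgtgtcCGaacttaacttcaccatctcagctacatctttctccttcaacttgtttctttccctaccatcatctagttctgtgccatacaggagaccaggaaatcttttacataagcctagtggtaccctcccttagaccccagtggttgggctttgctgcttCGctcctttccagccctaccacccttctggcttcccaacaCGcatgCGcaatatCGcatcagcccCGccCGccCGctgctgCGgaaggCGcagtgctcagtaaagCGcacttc
Nap1l5: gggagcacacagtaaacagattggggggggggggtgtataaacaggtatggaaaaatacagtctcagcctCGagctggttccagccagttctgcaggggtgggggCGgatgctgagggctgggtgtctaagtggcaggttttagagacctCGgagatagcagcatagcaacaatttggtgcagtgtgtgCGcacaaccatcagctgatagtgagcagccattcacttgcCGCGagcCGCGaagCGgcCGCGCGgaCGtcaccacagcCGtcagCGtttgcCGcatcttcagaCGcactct

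These windows held 13 CpG in Peg3, 20 in Zim1, 11 in Ndn and 17 in Nap1l5. The window of Usp29 shares 263 bases with that of Peg3 on the opposite strand, so both genes start from 1 stretch of DNA and run apart from each other. RefSeq windows were at hand for 30 of the 35 members, 43 windows in all, with a median of 16 CpG against 7 over 32851 windows of all genes. The letters TGCCGC, the motif that the zinc finger protein ZFP57 is known to bind at methylated imprinting control regions, were searched on both strands. They occurred in 11 of the 43 windows (25.6%, 10 genes) against 11.6% of all windows. The Nap1l5 window shown held 2 matches, that of Zim1 held 1, and those of Peg3 and Ndn held 0. Among windows with 10 or more CpG, a limit chosen after the counts were seen, the shares were 32.3% and 22.5%. A match is a description of the letters and not of binding in these hearts.

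In the comparison of genotypes, 0 of the 22 tested imprinted genes differed at an adjusted p under 0.05 (limma, Benjamini-Hochberg over all genes), where 1.76% of all tested genes did, 1.39% higher and 0.369% lower. At an unadjusted p under 0.05 there were 6 of 22 (27.3%), 4 higher and 2 lower in FOG-2 R3K5A hearts, against 14.7% of all genes (8.4% higher and 6.33% lower). The genotypes did not overlap for 7 of 22 (31.8%), with FOG-2 R3K5A above in 5 and below in 2, against 21.2% of all genes (11.5% above and 9.76% below). The differences ran from -0.58 for Dlk1 to 0.61 for Zim1, with 13 positive and 9 negative. Their median was 0.05, beside -0.01 for all tested genes, and the median size without sign was 0.17, beside 0.11. By limma, therefore, no imprinted gene is called changed here, and the values below describe differences that did not pass.

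**Figure D1:**
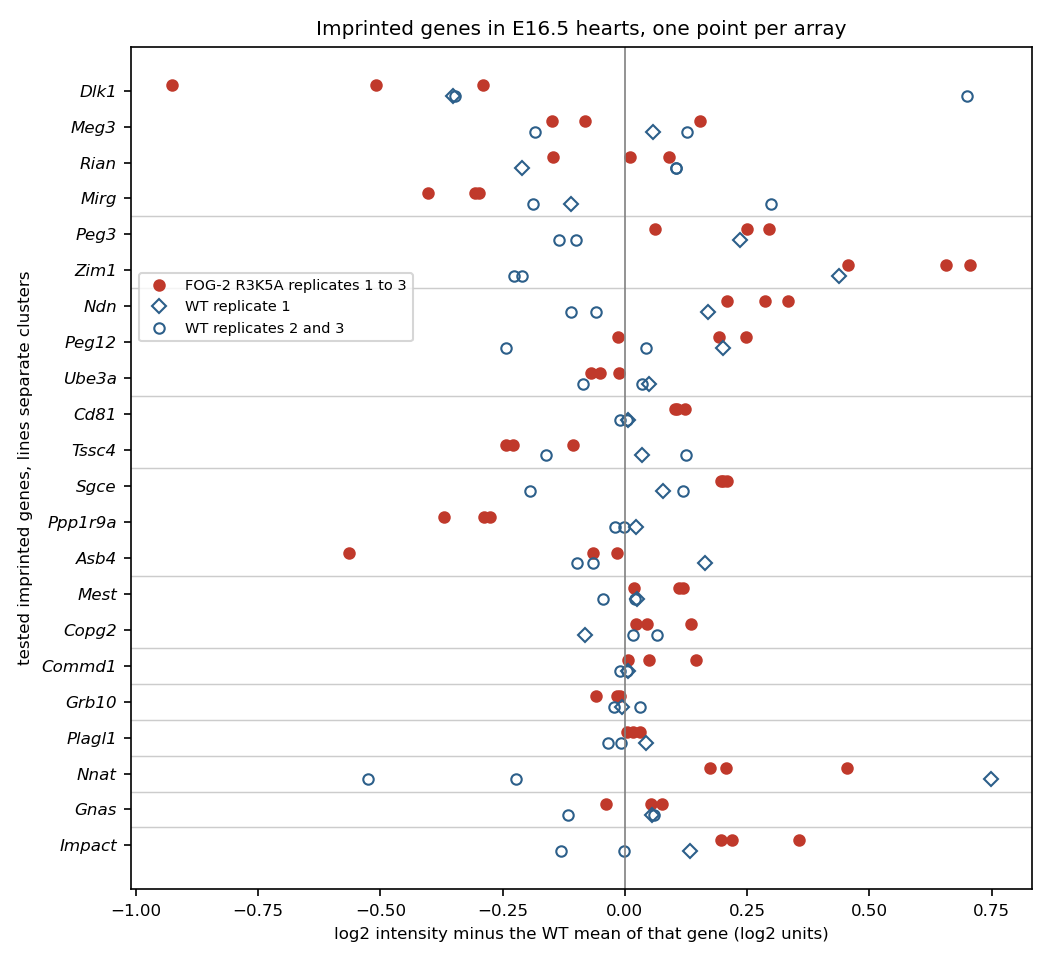
Log2 intensity of each tested imprinted gene on each array, as the distance from the WT mean of that gene (log2 units), with 1 filled point per FOG-2 R3K5A array, diamonds for WT replicate 1 and open circles for WT replicates 2 and 3. Ppp1r9a, Cd81, Sgce, Zim1, Ndn, Mirg and Impact are the 7 genes whose genotypes do not overlap, and for Zim1, Ndn, Peg3 and Nnat the diamond lies among or near the filled points.

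Genes were arranged by the allele each is known to be expressed from in at least some tissues. Of 9 tested paternally expressed genes 8 had positive differences (7 of 9 after quantile normalization or without WT replicate 2). Dlk1 was negative in all 17 alternative settings, though some of these, such as the threshold and the replicate block, leave a difference unchanged. The median of the paternally expressed genes was 0.20, or 0.09 without WT replicate 2, 0.12 with Xist as a covariate and 0.11 with the mean of all probe sets of a gene. Of 11 maternally expressed genes 4 had positive differences, or 6 of 11 with median centring, without FOG-2 R3K5A replicate 2 or without WT replicate 3, and the median was -0.03. In those 3 settings the median turned to 0.02 with median centring, 0.04 without FOG-2 R3K5A replicate 2 and 0.04 without WT replicate 3. Among all tested genes 47.2% were positive. The assignment is from general knowledge of the mouse, and for Ube3a, Commd1, Copg2, Asb4, Ppp1r9a and Cd81 it is known to depend on tissue or stage. The allele in use in these hearts was not measured, and no test was made between the 2 classes.

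**Figure D2:**
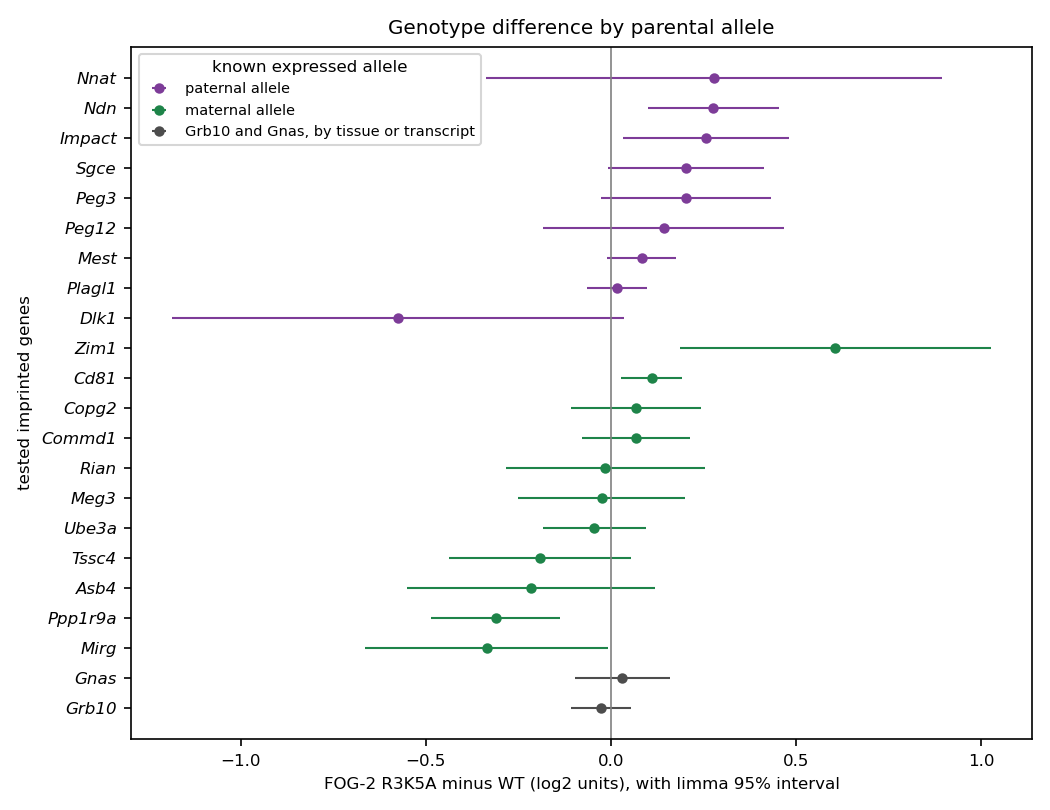
Genotype difference of each tested imprinted gene (log2 units, FOG-2 R3K5A minus WT) with limma's 95% interval, grouped by the parental allele it is known to be expressed from. The intervals of Ndn, Impact, Zim1 and Cd81 lie above 0 and those of Ppp1r9a and Mirg below it before any adjustment, while that of Dlk1 spans -1.18 to 0.03.

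The cluster around Sgce and Peg10 on chromosome 6 held the smallest p of the list. Ppp1r9a encodes neurabin, an actin-binding protein that anchors protein phosphatase 1, and is expressed from the maternal allele. It read 9.10, 9.09 and 9.01 in FOG-2 R3K5A hearts, against 9.40, 9.38 and 9.36 in WT hearts. All 3 FOG-2 R3K5A arrays were below all 3 WT arrays, with an SD of 0.05 and 0.02. The difference was -0.31 (SE 0.08, 95% interval -0.49 to -0.14) with an unadjusted p of 0.00283 and an adjusted p of 0.0925 by limma, rank 340 of 11113 genes. The other 3 Ppp1r9a probe sets above the filter level also had negative differences, of -0.33, -0.16 and -0.21, and 1 dim probe set under it had 0.68. With the mean of all 5 probe sets, the dim one included, the difference was -0.07 (adjusted p = 0.779 by limma).

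Asb4, a maternally expressed SOCS-box protein of ubiquitin ligases known from fetal vessels and placenta, read 9.18, 9.23 and 8.68 in FOG-2 R3K5A hearts, against 9.41, 9.18 and 9.15 in WT hearts. The groups overlapped, and the difference of -0.22 did not pass (adjusted p = 0.527 by limma). It was -0.04 without FOG-2 R3K5A replicate 3, the lowest array, and -0.08 with Xist as a covariate or with array quality weights. Its second probe set gave -0.25, with no overlap. Sgce, the paternally expressed epsilon-sarcoglycan of the dystrophin-associated complex, had linear intensities of 1027, 1024 and 1033 in FOG-2 R3K5A hearts, against 943, 780 and 969 in WT hearts. The FOG-2 R3K5A arrays were close together (SD 0.0061 log2 units) and lay above all WT arrays, but the WT spread (SD 0.17) left a difference of 0.20 that did not pass (adjusted p = 0.355 by limma). It was 0.11 without WT replicate 2 and 0.06 with the mean of both probe sets, of which the second was under the filter level. Peg10, a paternally expressed gene derived from a retrotransposon and needed in the placenta, shares the region of its start with Sgce. It was under the filter level, at 3.70 ± 0.17 in FOG-2 R3K5A and 3.54 ± 0.79 in WT hearts (SD, n = 3 each).

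Neighbours of this cluster that are not among the 35 genes were in a list of 53 other imprinted genes, of which 29 were tested. Of these 0 passed at an adjusted p under 0.05 by limma and 6 had an unadjusted p under 0.05 (20.7%), against 1.76% and 14.7% of all genes. Of the 6, Pon2, Tfpi2 and Pon3 belong to the same cluster. Pon2, a paraoxonase of cell membranes, was 0.39 higher (SE 0.08, adjusted p = 0.0556, called at 0.0395 after quantile normalization, at 0.0454 after median centring and at 0.0227 with array quality weights). Tfpi2, a secreted inhibitor of serine proteases, was 0.51 higher (SE 0.13, adjusted p = 0.0968), and Pon3 was 0.25 higher (adjusted p = 0.331). For all 3 the FOG-2 R3K5A arrays lay above the WT arrays. The cluster thus held differences of both signs, with Sgce, Tfpi2, Pon2 and Pon3 above 0 and Ppp1r9a and Asb4 below it, Asb4 by little without 1 array.

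In the Peg3 cluster on chromosome 7, Peg3 encodes a large zinc finger protein of the paternal allele, and Zim1 a zinc finger protein of the maternal allele. Zim1 read 7.56, 7.61 and 7.36 in FOG-2 R3K5A hearts, against 7.34, 6.68 and 6.69 in WT hearts. The groups did not overlap, and WT replicate 1 was within 0.02 of the lowest FOG-2 R3K5A array. The difference of 0.61 (SE 0.19, 1.52-fold) had an unadjusted p of 0.00973 and an adjusted p of 0.169. Without WT replicate 1 it was 0.83 (SE 0.13, adjusted p = 0.0186 by limma), and the call is made in that setting and with array quality weights (adjusted p = 0.0405). The difference was 0.49 without WT replicate 2 (adjusted p = 0.346 by limma) and 0.50 without WT replicate 3 (adjusted p = 0.350 by limma). Only 1 probe set reads Zim1.

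Peg3 read 11.98, 12.03 and 11.79 in FOG-2 R3K5A hearts, against 11.97, 11.63 and 11.60 in WT hearts. WT replicate 1 lay among the FOG-2 R3K5A arrays, and the difference of 0.20 did not pass (adjusted p = 0.392 by limma). It was 0.32 without WT replicate 1 (adjusted p = 0.0593 by limma) and 0.13 without WT replicate 3 (adjusted p = 0.616 by limma). Of the other Peg3 probe sets above the filter level, 1 gave 0.24 and 1 gave 0.00. The mean of all 5, with 2 dim ones, gave 0.39 (adjusted p = 0.474 by limma). Usp29, which starts from the same stretch of DNA as Peg3 on the other strand and is known chiefly from brain and testis, was under the filter level at 5.01 ± 0.13 in FOG-2 R3K5A and 5.37 ± 0.44 in WT hearts (SD, n = 3 each).

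The log2 distance between Peg3 and Zim1 on the same array was 4.42, 4.42 and 4.43 in FOG-2 R3K5A hearts, against 4.62, 4.95 and 4.90 in WT hearts. The 3 FOG-2 R3K5A values were almost equal and below all WT values, a difference of -0.40. The exact permutation test, two-sided, gave p = 0.10, the smallest that 3 against 3 arrays allow, and 0.30 adjusted over the 3 pairs of opposite parental expression that could be formed. The distance between Dlk1 and Meg3 was -1.31, -1.88 and -1.77 in FOG-2 R3K5A hearts, against -1.51, -0.22 and -1.58 in WT hearts. WT replicate 2 alone stood apart in the difference of -0.55 (exact p = 0.40, adjusted 0.60). The distance between Mest and Copg2 differed by 0.01 (exact p = 1, adjusted 1).

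The Prader-Willi and Angelman region on chromosome 7 held Ndn, which encodes necdin, a MAGE family protein known to hold back the cell cycle of neurons. Ndn read 11.71, 11.76 and 11.63 in FOG-2 R3K5A hearts, against 11.59, 11.37 and 11.31 in WT hearts. The groups did not overlap, and WT replicate 1 was again the WT array nearest to the FOG-2 R3K5A arrays. The difference was 0.28 (SE 0.08, 1.21-fold, unadjusted p = 0.00618, adjusted p = 0.140 by limma). Without WT replicate 1 it was 0.36 (SE 0.06, adjusted p = 0.0231), and with array quality weights 0.32 (adjusted p = 0.0314). It was 0.22 without WT replicate 3 (adjusted p = 0.313 by limma). With the mean of all 8 Ndn probe sets it was 0.15 (adjusted p = 0.468).

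All 5 Ndn probe sets above the filter level had positive differences, from 0.23 to 0.61, and 4 of them did not overlap between genotypes. The other 3 were under that level, and 1 of these had -0.55 with no overlap. The 2 largest differences, 0.61 and 0.49, came from probe sets whose names end in _x_at, a suffix Affymetrix gives where probes may also match other transcripts. Ube3a, the ubiquitin ligase of Angelman syndrome, is expressed from the maternal allele in neurons and from both alleles in most other tissues. It read 10.984, 11.041 and 11.002 in FOG-2 R3K5A hearts, against 11.103, 11.089 and 10.969 in WT hearts, a difference of -0.04 with an interval of -0.18 to 0.09. Its 6 probe sets were all negative, from -0.25 to -0.04, and 0 had an unadjusted p under 0.05.

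Peg12, a paternally expressed relative of a GSK-3 binding protein, read 7.494, 7.234 and 7.440 in FOG-2 R3K5A hearts, against 7.448, 7.005 and 7.290 in WT hearts. Its groups overlapped and the difference was 0.14 (adjusted p = 0.680 by limma), or 0.02 without WT replicate 2 and 0.24 without WT replicate 1. Magel2, a MAGE family gene, and Mkrn3, a ubiquitin ligase gene, lay just under the filter level, with differences of 0.00 and 0.09. Magel2 averaged 6.07 in both genotypes, and Mkrn3 averaged 6.20 in FOG-2 R3K5A and 6.11 in WT hearts. Snrpn, a small nuclear ribonucleoprotein, read 4.04 ± 0.38 in FOG-2 R3K5A and 3.89 ± 0.26 in WT hearts (SD, n = 3 each) on its only probe set with 1 gene name. Another 6 probe sets name Snrpn beside a second gene and were not used as its level. Of these 6 and 1 such probe set of H19, 5 were above the filter level, 0 were called in a fit with them included, and 2 had an unadjusted p under 0.05 (smallest adjusted p = 0.0528 by limma).

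**Figure D3:**
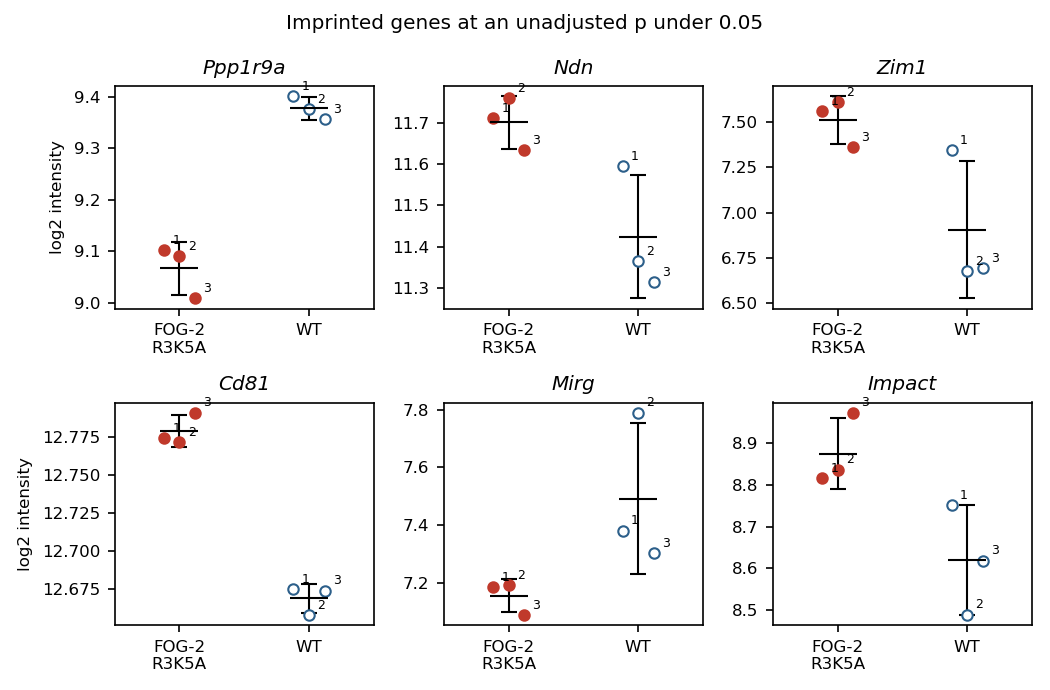
Log2 intensity of the 6 imprinted genes with an unadjusted p under 0.05, 1 numbered point per replicate, with the mean and SD of each genotype as bars and a separate vertical scale in each panel. FOG-2 R3K5A arrays lie above WT arrays for Ndn, Zim1, Cd81 and Impact and below them for Ppp1r9a and Mirg, and WT replicate 1 is the WT array nearest to the FOG-2 R3K5A arrays for Ndn, Zim1, Impact and, by a small margin, Cd81.

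In the Dlk1-Dio3 cluster on chromosome 12, Dlk1 encodes a transmembrane relative of Notch ligands from the paternal allele, while Meg3, Rian and Mirg are non-coding RNAs of the maternal allele, and Rian and Mirg host small RNAs. All 4 tested genes had negative differences on their brightest probe sets, though Meg3 turned to 0.02 and Rian to 0.03 with median centring, and Rian was above 0 also after quantile normalization and with the mean of its probe sets. Dlk1 read 10.04, 9.41 and 9.82 in FOG-2 R3K5A hearts, against 9.98, 11.03 and 9.99 in WT hearts. WT replicate 2 alone was far above the other 5 arrays. The difference of -0.58 (SE 0.27) did not pass (adjusted p = 0.369 by limma), and it was -0.23 without WT replicate 2 and -1.11 with the mean of both probe sets, of which the second was under the filter level.

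Fetal skeletal muscle is a known site of Dlk1 expression. The summed level of 10 skeletal muscle markers, 5 of them above the filter level, was 13.18, 13.10 and 13.10 in FOG-2 R3K5A hearts, against 13.12, 13.48 and 13.31 in WT hearts, highest on WT replicate 2, where Dlk1 was highest too. Ckm, by far the brightest of these markers, dominated the sum, at 12.69, 13.13 and 12.94 in WT hearts. The cells that its RNA came from were not identified. Myh8 was also highest on WT replicate 2, and Mylpf was alike on WT replicates 2 and 3 (7.62 and 7.61). Tnni2 was highest on WT replicate 1 (8.27, against 7.82 on WT replicate 2), and Casq1 was 10.59, 10.62 and 10.59 in WT hearts. Tnni2 and Casq1 were called lower in FOG-2 R3K5A hearts. Of the markers under the filter level, Myh3 (6.94) and Actn3 (5.87) were highest on WT replicate 2. Tnnc2, Tnnt3 and Myog were not highest there, at 5.31, 5.28 and 3.47, with genotype differences of -0.15, 0.09 and 0.38. The part of skeletal muscle cells in the Dlk1 value was not tested.

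Mirg read 7.18, 7.19 and 7.09 in FOG-2 R3K5A hearts, against 7.38, 7.79 and 7.30 in WT hearts. The groups did not overlap, and WT replicate 2 was again the highest array. The difference was -0.34 (SE 0.14, unadjusted p = 0.0453, adjusted p = 0.326 by limma), and -0.19 without WT replicate 2. Meg3, the long non-coding RNA that heads the maternal transcripts, had 11.35, 11.29 and 11.59 in FOG-2 R3K5A hearts, against 11.49, 11.25 and 11.56 in WT hearts, a difference of -0.03 with an interval of -0.25 to 0.20. Its 7 probe sets above the filter level were all negative, from -0.24 to -0.01, and 1 of them had an unadjusted p under 0.05.

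Rian split by probe set. The brightest gave 8.30, 8.14 and 8.38 in FOG-2 R3K5A hearts, against 8.08, 8.39 and 8.39 in WT hearts, a difference of -0.02. The next brightest gave 8.29, 8.09 and 8.39 in FOG-2 R3K5A hearts, against 7.94, 7.93 and 7.85 in WT hearts, with no overlap and a difference of 0.35 (unadjusted p = 0.00991, adjusted p = 0.195 over all probe sets by limma). The other two gave 0.32 and 0.17. Rian is long and processed into many pieces, and which of them each probe set reads was not examined.

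In the H19 and Kcnq1 domain on distal chromosome 7, Cd81, a tetraspanin of the cell surface, varied little within each genotype. It read 12.77, 12.77 and 12.79 in FOG-2 R3K5A hearts, against 12.67, 12.66 and 12.67 in WT hearts, with an SD of 0.01 in both groups. The difference of 0.11 (SE 0.04, 1.08-fold) was many times the spread between replicates. By limma, which draws its error toward that of other genes of like brightness, the p was 0.0146 unadjusted and 0.202 adjusted. The size depended on scaling, and the array medians themselves spanned 0.120 log2 units. It was 0.07 after quantile normalization (adjusted p = 0.417 by limma) and 0.15 with median centring (adjusted p = 0.219 by limma). Tssc4, a splicing factor, read 7.94, 8.06 and 7.93 in FOG-2 R3K5A hearts, against 8.21, 8.30 and 8.01 in WT hearts, a difference of -0.19 (adjusted p = 0.446).

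Phlda2, Slc22a18 and Ascl2, maternally expressed genes of this domain that are known from the placenta, were under the filter level. Phlda2, a brake on placental growth, averaged 4.87 in FOG-2 R3K5A and 4.93 in WT hearts. Slc22a18, a transporter, averaged 4.27 in FOG-2 R3K5A and 4.51 in WT hearts, and Ascl2, a transcription factor of the trophoblast, 3.35 in FOG-2 R3K5A and 3.28 in WT hearts. H19 is named on 1 probe set together with a second gene, which was not used. Of the 3 genes left out of the list, Igf2 averaged 13.19 ± 0.09 in FOG-2 R3K5A and 13.14 ± 0.09 in WT hearts and Igf2r 12.39 ± 0.09 in FOG-2 R3K5A and 12.31 ± 0.11 in WT hearts (SD, n = 3 each). Cdkn1c ranged over 12.03 to 12.31 in FOG-2 R3K5A and 11.81 to 12.33 in WT hearts. Their differences were 0.05 for Igf2, 0.09 for Igf2r and 0.19 for Cdkn1c. None of the 3 passed (adjusted p = 0.724 for Igf2, 0.583 for Igf2r and 0.527 for Cdkn1c by limma).

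Mest, Grb10, Plagl1 and Gnas had main probe sets near the top of the intensity range of the arrays. The largest value in the table was 14.08 log2 units. Mest, a paternally expressed hydrolase-like protein of mesoderm, read 13.31, 13.32 and 13.22 in FOG-2 R3K5A hearts, against 13.22, 13.22 and 13.15 in WT hearts, a difference of 0.08 (adjusted p = 0.389 by limma). Grb10, an adaptor that damps insulin and IGF receptor signalling, read 13.13, 13.13 and 13.08 in FOG-2 R3K5A hearts, against 13.13, 13.12 and 13.17 in WT hearts, a difference of -0.03. Plagl1, a zinc finger factor that regulates other imprinted genes, read 13.15, 13.18 and 13.16 in FOG-2 R3K5A hearts, against 13.19, 13.11 and 13.14 in WT hearts, a difference of 0.02 with an interval of -0.07 to 0.10.

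Dimmer probe sets of these genes gave other values. Those of Grb10 gave -0.15 and -0.23, the second at 10.08, 10.23 and 10.14 in FOG-2 R3K5A hearts, against 10.30, 10.49 and 10.35 in WT hearts, with no overlap (unadjusted p = 0.0178, adjusted p = 0.242 over all probe sets by limma). Those of Plagl1 gave -0.22 and 0.38, the second at 7.47, 7.56 and 7.27 in FOG-2 R3K5A hearts, against 6.89, 7.22 and 7.05 in WT hearts, with no overlap (adjusted p = 0.246). Gnas, whose locus gives the stimulatory G protein alpha subunit and several imprinted transcripts, read 12.85, 12.87 and 12.76 in FOG-2 R3K5A hearts, against 12.85, 12.86 and 12.68 in WT hearts, a difference of 0.03. Its other two probe sets above the filter level gave -0.11 and -0.27. The small differences on the brightest probe sets do not show that these transcripts were equal between genotypes.

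**Figure D4:**
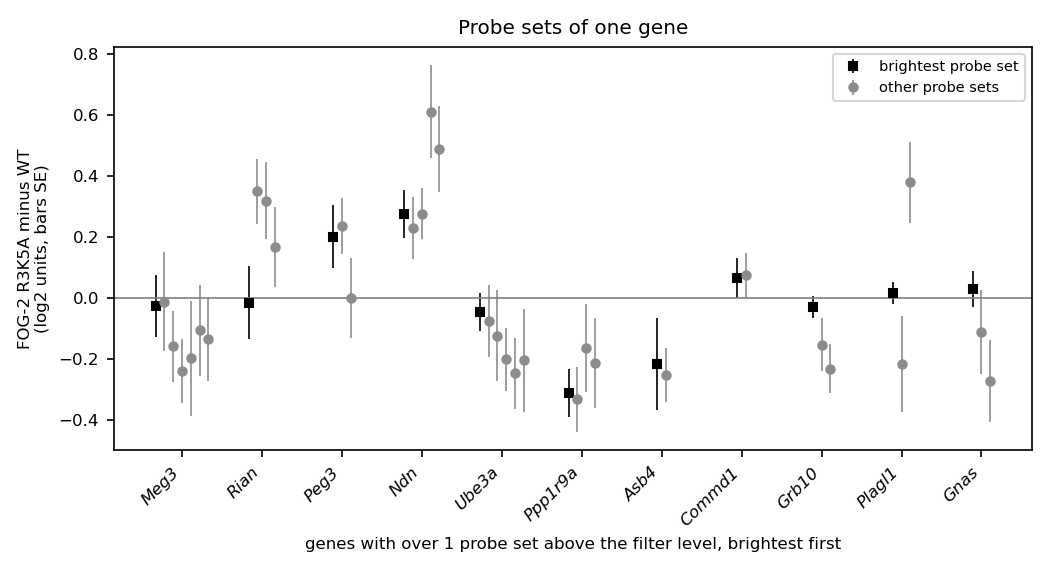
Genotype differences (log2 units, FOG-2 R3K5A minus WT) of every probe set above the filter level for the 11 imprinted genes with more than 1, with limma's SE as bars, squares for the brightest probe set and circles for the others in falling order of brightness. Signs are mixed for Rian, Plagl1 and Gnas and shared for the other 8 genes.

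In the fit over all 19762 single-gene probe sets above the filter level, 0 of the 53 probe sets of imprinted genes passed (1.10% of all did), with a smallest adjusted p of 0.113 for Ndn. At an unadjusted p under 0.05 there were 17 of 53 (32.1%), 11 higher and 6 lower, against 14.1% of all probe sets. Probe sets of 1 gene read the same RNA and are not independent.

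Of the genes outside larger clusters, Impact, a paternally expressed inhibitor of the stress kinase GCN2, read 8.82, 8.84 and 8.97 in FOG-2 R3K5A hearts, against 8.75, 8.49 and 8.62 in WT hearts. The groups did not overlap, and the difference of 0.26 (SE 0.10) had an unadjusted p of 0.0296 and an adjusted p of 0.272. Nnat, a paternally expressed proteolipid known from brain and endocrine cells, read 8.83, 9.11 and 8.87 in FOG-2 R3K5A hearts, against 9.41, 8.14 and 8.44 in WT hearts. WT replicate 1 was the highest of all 6 arrays and WT replicates 2 and 3 the lowest, so the difference of 0.28 (SE 0.27, adjusted p = 0.671 by limma) became 0.65 without WT replicate 1 (SE 0.13, adjusted p = 0.0384) and 0.02 without WT replicate 2, and was 0.12 with Xist as a covariate. Without WT replicate 1, Zim1, Ndn and Nnat were thus called, 3 of 22 imprinted genes, where 4.06% of all genes were. For these genes WT replicate 1 lay on the FOG-2 R3K5A side of the other WT arrays, so leaving it out had to widen their differences. No imprinted gene was called when any other array was left out.

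Nap1l5, a paternally expressed relative of nucleosome assembly proteins, lies inside an intron of Herc3 in the mouse. It was under the filter level, yet its arrays separated clearly, at 5.25, 5.29 and 5.19 in FOG-2 R3K5A hearts, against 4.58, 4.53 and 4.44 in WT hearts. In the fit with no filter its difference of 0.72 (SE 0.17) had an adjusted p of 0.166. Herc3, a ubiquitin ligase on the list of other imprinted genes, read 10.78, 10.75 and 10.91 in FOG-2 R3K5A hearts, against 10.95, 11.17 and 10.98 in WT hearts, with no overlap and a difference of -0.22 (adjusted p = 0.226 by limma). The pair therefore held non-overlapping values of opposite sign, neither of which passed.

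Copg2, a subunit of the COPI coat that overlaps the end of Mest, had 9.77, 9.66 and 9.68 in FOG-2 R3K5A hearts, against 9.55, 9.65 and 9.70 in WT hearts, and Commd1, a copper homeostasis protein whose intron holds Zrsr1, had 10.68, 10.59 and 10.54 in FOG-2 R3K5A hearts, against 10.54, 10.53 and 10.54 in WT hearts. Both differences were 0.07, with overlapping groups (adjusted p = 0.714 for Copg2 and 0.666 for Commd1 by limma). Of the other imprinted genes outside the clusters above, Dcn, the matrix proteoglycan decorin, was 0.24 higher (SE 0.05, adjusted p = 0.0690) and Zfp64, a zinc finger protein, 0.54 lower (SE 0.17, adjusted p = 0.169), both without overlap. Neither was called with all arrays weighted alike, and Dcn was called with array quality weights (0.28, adjusted p = 0.0295).

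Markers of other cell types moved between genotypes beside these values. Of 10 mesothelial and epicardial markers, all above the filter level, 6 were called higher, and the summed level of the list was 12.75 to 12.88 in FOG-2 R3K5A and 12.25 to 12.34 in WT hearts. The epicardial factors Tbx18 (-0.11) and Wt1 (-0.06) had negative differences, and Bnc1 (0.36) and Upk1b (0.59) had positive ones that were not called. Of 8 neuron and glia markers 6 had a probe set and 3 were above the filter level, and their summed level was 10.04 to 10.21 in FOG-2 R3K5A and 9.70 to 9.83 in WT hearts, with 0 called. Among them Uchl1 averaged 9.65 in FOG-2 R3K5A and 9.04 in WT hearts (adjusted p = 0.0619 by limma), and Stmn2, under the filter level, 5.86 in FOG-2 R3K5A and 5.46 in WT hearts. The differences of Sox10 (-0.08), Dbh (0.00) and Prph (-0.32) were not positive, and Tubb3 was near the floor at 0.82 in FOG-2 R3K5A and 0.06 in WT hearts. Fibroblast and mesenchyme markers, 8 of 8 above the filter level, summed to 14.85 to 14.95 in FOG-2 R3K5A and 14.79 to 14.92 in WT hearts. Lung and airway markers, 4 of 9 above the filter level, summed to 9.68, 8.36 and 11.89 in FOG-2 R3K5A hearts, against 8.34, 8.37 and 8.85 in WT hearts, high on FOG-2 R3K5A replicates 3 and 1. Scgb3a2 read 9.03, 4.87 and 11.36 in FOG-2 R3K5A hearts, against 4.833, 4.811 and 5.396 in WT hearts, and Sftpc reached 9.43 and Cdh1 7.58 on FOG-2 R3K5A replicate 3. On FOG-2 R3K5A replicate 1 Sftpc read 6.17, Sftpb 6.04 and Cdh1 4.92. Sftpb (-0.14) and Scgb3a1 (0.00), both above the filter level, were not higher in FOG-2 R3K5A hearts, nor was Sftpd (-0.38), under it. The lung factor Nkx2-1 was near the floor at 0.90 in FOG-2 R3K5A and 1.53 in WT hearts. Endothelial markers, 7 of 7 above the filter level and only Vwf called higher, summed to 13.28 to 13.34 in FOG-2 R3K5A and 13.14 to 13.23 in WT hearts. The difference of Kdr was -0.10 and that of Cdh5 0.01, and those of Pecam1, Tek, Flt1 and Emcn ran from 0.12 to 0.23. Leukocyte markers, 5 of 7 above the filter level, summed to 11.03 to 11.10 in FOG-2 R3K5A and 10.65 to 10.999 in WT hearts. Erythroid markers, 2 of 5 above the filter level, summed to 11.58, 11.84 and 10.80 in FOG-2 R3K5A hearts, against 12.80, 11.13 and 10.71 in WT hearts, highest on WT replicate 1. Hbb-y read 12.59 on that array, while Alas2 was not raised there (9.85). Liver markers, 1 of 5 above the filter level, summed to 8.17 to 8.53 in FOG-2 R3K5A and 7.98 to 8.95 in WT hearts, also highest on WT replicate 1. Afp, under the filter level, read 8.06 there and carried that sum. Apoa1 (4.71) was also highest on that array, but Alb (5.48) was not raised and Ahsg (4.95) was lowest there. Ndn, Peg3, Nnat and Impact are known from neurons and several of the genes also from mesenchyme, and the part of such cells in these values was not tested.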

How the data were processed

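Total RNA (3 µg per sample, Trizol extraction, per the labels' protocols) of 6 whole-heart samples was read on Affymetrix mouse arrays with 1 colour, 1 array a sample. The authors deposited linear probe set intensities, with array medians within 0.120 log2 units. How these intensity values were summarised, background-corrected and normalized is not given in the sources used here. Detection calls were not used. Precision is limited by having 6 arrays.

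Of 45101 probe sets, 64 were array controls, and 34945 had 1 gene symbol in the platform annotation, 932 several and 9160 none. Values under 1 were raised to 1 before taking log2. As the array medians were within 0.2 log2 units, no normalization was applied to the deposited values. Each of 18193 genes was represented by its brightest single-symbol probe set, and 7080 genes with a mean at or below 6.30 (the median of all non-control probe sets) were left out. The comparison used limma 3.58.1 under R 4.3.3 (lmFit and eBayes with an intensity trend, two-sided tests), with p-values adjusted by Benjamini-Hochberg over 11113 genes and called at an adjusted p under 0.05. On simulated data the fit called 47.2% of genes changed by 0.5 log2 units and 87% of those changed by 1, with 3.94% of calls false. A change of 0.5 log2 units can therefore be missed. No list was tested as a whole. Figures were drawn with matplotlib 3.10.9. Promoter windows came from RefSeq (GRCm38.p6).

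Every member is named, with Zfpm2, Igf2, Igf2r, Cdkn1c and the 6 other imprinted genes with the smallest p. The members and lists were chosen with earlier results of these data known. Alternatives covered normalization, an offset of 16, the filter, probe sets, the threshold, the variance model, a block for the replicate number, Xist as a covariate and leaving out each array.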

Additional observations from a re-analysis of the deposited data

How the results depend on the processing

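Over 17 alternative settings, 345 of 368 differences of the 22 imprinted genes kept their sign and their side of the threshold. Of the 22 genes, 17 kept their sign throughout. With no filter, a stricter filter, no intensity trend, the threshold of 0.1 or the replicate block, each difference was that of the main fit. Its sign could not turn in those settings, so these counts overstate how stable the signs were. The number of imprinted genes called was 0 with all arrays, 2 with array quality weights, 1 (Ppp1r9a) at an adjusted p under 0.1 and 0 to 3 with 1 array left out, 3 of them without WT replicate 1. Their median difference of 0.05 became 0.0903 with median centring and ran from 0.0256 (without FOG-2 R3K5A replicate 1) to 0.0716 with 1 array left out. The number of all genes called, 196, became 81 with no filter, 106 with a stricter filter, 125 with the mean of probe sets, 119 without the intensity trend, 429 with array quality weights, 369 at an adjusted p under 0.1, 43 with the Xist covariate and 37 to 451 with 1 array left out. Other imprinted genes called were 0 with all arrays, 1 after quantile normalization (Pon2), 1 after median centring (Pon2), 2 with array quality weights, 3 at an adjusted p under 0.1, and 0 to 1 with 1 array left out. Signs turned only for small differences that were not called: to 0.00781 for Rian, -0.0142 for Plagl1 and -0.00701 for Gnas after quantile normalization, to 0.0165 for Meg3, 0.0268 for Rian and 0.0138 for Grb10 with median centring, and to 0.21 for Rian and -0.13 for Gnas with the mean of probe sets. With 1 array left out, Meg3 ran from -0.12 to 0.0382, Rian from -0.12 to 0.0508, Plagl1 from -0.00038 to 0.0377 and Gnas from -0.0276 to 0.0643. The cause of these changes was not tested. With the replicate number as a block, 0 imprinted genes and 234 genes were called. Deviations of same-numbered arrays correlated at -0.06, 0.13 and 0.41, and those of unlike-numbered arrays from -0.32 to 0.25. So few values cannot decide whether the numbers pair the samples. The 9 genes under the filter level were tested only in the fit with no filter, where 0 imprinted genes were called, and no background level of the arrays was measured.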
